A study of Homo sapiens with 8 samples.

Results

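Retinoic acid is made from vitamin A in cells that carry the right enzymes, and it acts on transcription directly. Retinaldehyde dehydrogenases of the ALDH1A family oxidise retinal to retinoic acid, which binds retinoic acid receptors (RARs) paired with retinoid X receptors (RXRs) on DNA, while CYP26 enzymes break it down and DHRS3 turns retinal back into retinol. The receptors bind retinoic acid response elements, which are pairs of short hexamers repeated in the same direction. In the intestine the pathway is known for its part in epithelial differentiation and mucosal immunity.

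The genes described here are ALDH1A3 and 9 further genes of this pathway, 10 in all among the 20098 annotated protein-coding genes of the autosomes and the X chromosome. They are a list of named genes with no measured threshold behind it, and all 10 were found in the annotation. The enzymes that make retinoic acid are represented by ALDH1A1, ALDH1A2 and ALDH1A3, the receptors by RARA, RARB, RARG and RXRA, and the enzymes that limit it by CYP26A1, CYP26B1 and DHRS3.

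HCT8 cells, a line from a human ileocecal colorectal adenocarcinoma, were kept for 5 h with membrane vesicles (MVs) from E. coli MC1061, with MVs from V. cholerae C6706, or mock-treated with no vesicles. The study asked how vesicles of a non-pathogenic and of a pathogenic bacterium act on promoter marking and open chromatin in these cells. H3K4me3, the histone mark of active promoters, was measured by ChIP sequencing, and nucleosome-free DNA was measured by FAIRE sequencing. Each treatment had 1 library per assay, so there is no replicate, no difference could be set against the spread between cultures, and no test or p-value is given. Intervals are exact 95% intervals that cover counting error only.

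The value of a gene is its normalized tag count, the tags per 10000000 tags of the library summed over all called peaks within 1000 bp of any annotated start site. The H3K4me3 libraries held 3463875 tags (mock), 10528314 tags (E. coli MVs) and 13011839 tags (V. cholerae MVs), and the FAIRE libraries 14474665, 7888670 and 12077180 tags. The FAIRE library of E. coli MVs stood apart, with 37.3% of its tags in peaks against 7.12% (mock) and 13.9% (V. cholerae MVs), and with peaks of up to 23452 bp against 3857 bp and 6870 bp. In H3K4me3 the mock library was the shallowest, with 38.6% of tags in peaks against 53.9% and 56.1%. Of 10 markers of intestinal epithelium, 8, 9 and 8 had an H3K4me3 peak in the libraries of mock, E. coli MVs and V. cholerae MVs, at up to 1536 for CDX2. Of 5 blood cell markers only CD14 had one, at 101.0, 135.8 and 166.8, while PTPRC had none in any library. Of 7 markers of other tissues 0, 2 and 2 had one, none above 17.1.

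The enzymes ALDH1A3 and ALDH1A1 differ widely in the sequence before their start sites, and both are shown to make that contrast visible, as the 250 bases upstream of the canonical start site with each CG dinucleotide in capitals. ALDH1A3 is read on the plus strand at chr15:101419786-101420035 of GRCh37, and ALDH1A1 on the minus strand at chr9:75567970-75568219.
ALDH1A3: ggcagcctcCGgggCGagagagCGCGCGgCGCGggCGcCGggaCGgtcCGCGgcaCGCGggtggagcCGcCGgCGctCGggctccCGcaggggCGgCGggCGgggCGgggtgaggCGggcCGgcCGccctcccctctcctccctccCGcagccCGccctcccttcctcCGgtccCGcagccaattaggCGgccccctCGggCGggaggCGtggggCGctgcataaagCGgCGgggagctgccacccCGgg
ALDH1A1: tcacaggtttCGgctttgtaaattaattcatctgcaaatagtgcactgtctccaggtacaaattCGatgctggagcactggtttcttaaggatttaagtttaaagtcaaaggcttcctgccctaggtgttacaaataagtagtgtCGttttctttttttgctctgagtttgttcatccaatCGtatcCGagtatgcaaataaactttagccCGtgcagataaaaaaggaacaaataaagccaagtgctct

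The ALDH1A3 sequence holds 38 CG dinucleotides at 82.4% GC, and the ALDH1A1 sequence 6 at 38.4% GC. Over the 1001 bases around the canonical start site, the observed over expected ratio of CG was 0.96 for ALDH1A3 and 0.35 for ALDH1A1, and 95.6% and 22.4% of protein-coding genes lay below them. RXRA, with 1.05, lay above 99.5% of genes, and RARA, with 0.29, above 19.0%. Among all genes with a ratio of 0.6 or more, 80.2%, 83.5% and 84.4% had an H3K4me3 peak in the 3 libraries, compared with 23.1%, 28.0% and 29.1% of genes below it.

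Response elements were searched as a second feature of sequence, within 1000 bp of every start site and on both strands. A match was any pair of hexamers in the same direction, 5 bases apart, where each could be AGGTCA, the consensus, or a common variant of it. The variants were AGTTCA with another centre, then GGGTCA with another first base, and finally GGTTCA with both changes. Such letters lay near a start site of 1.66% of protein-coding genes, in 0.469% of all windows of 2001 bp, and near a start site of 4 of the 10 genes. With a spacing of 2 bases, 16.7% of genes (4.79% of windows) and none of the 10 held a match. The 4 matches are printed with 6 bases on either side and the hexamers in capitals, at chr17:38497899-38497927 (RARA, plus strand), chr3:25469695-25469723 (RARB, plus strand), chr10:94833554-94833582 (CYP26A1, minus strand) and chr1:12655989-12656017 (DHRS3, minus strand).
RARA: caggcgAGTTCAgcgagAGTTCAgccgca
RARB: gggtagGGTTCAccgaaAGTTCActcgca
CYP26A1: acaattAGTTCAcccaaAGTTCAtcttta
DHRS3: gctccgGGTTCAgccacAGGTCAgcggcg

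The matches stood 273 bp downstream (RARA), 22 bp downstream (RARB), 82 bp upstream (CYP26A1) and 318 bp downstream (DHRS3) of the nearest start site. These are matches of letters, and binding of a receptor was not measured. The called peaks at each are given with its gene below.

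An H3K4me3 peak lay near a start site of 8, 8 and 9 of the 10 genes in the libraries of mock, E. coli MVs and V. cholerae MVs, compared with 60.4%, 64.2% and 65.2% of all protein-coding genes. The genes with none were ALDH1A1 and RARB, except that ALDH1A1 had a peak with V. cholerae MVs. FAIRE peaks were found for 4, 9 and 9 of the 10 genes, against 41.7%, 77.7% and 62.4% of all genes. The 4 genes with a FAIRE peak in mock-treated cells were ALDH1A2, ALDH1A3, RARA and RXRA.

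**Figure D1:**
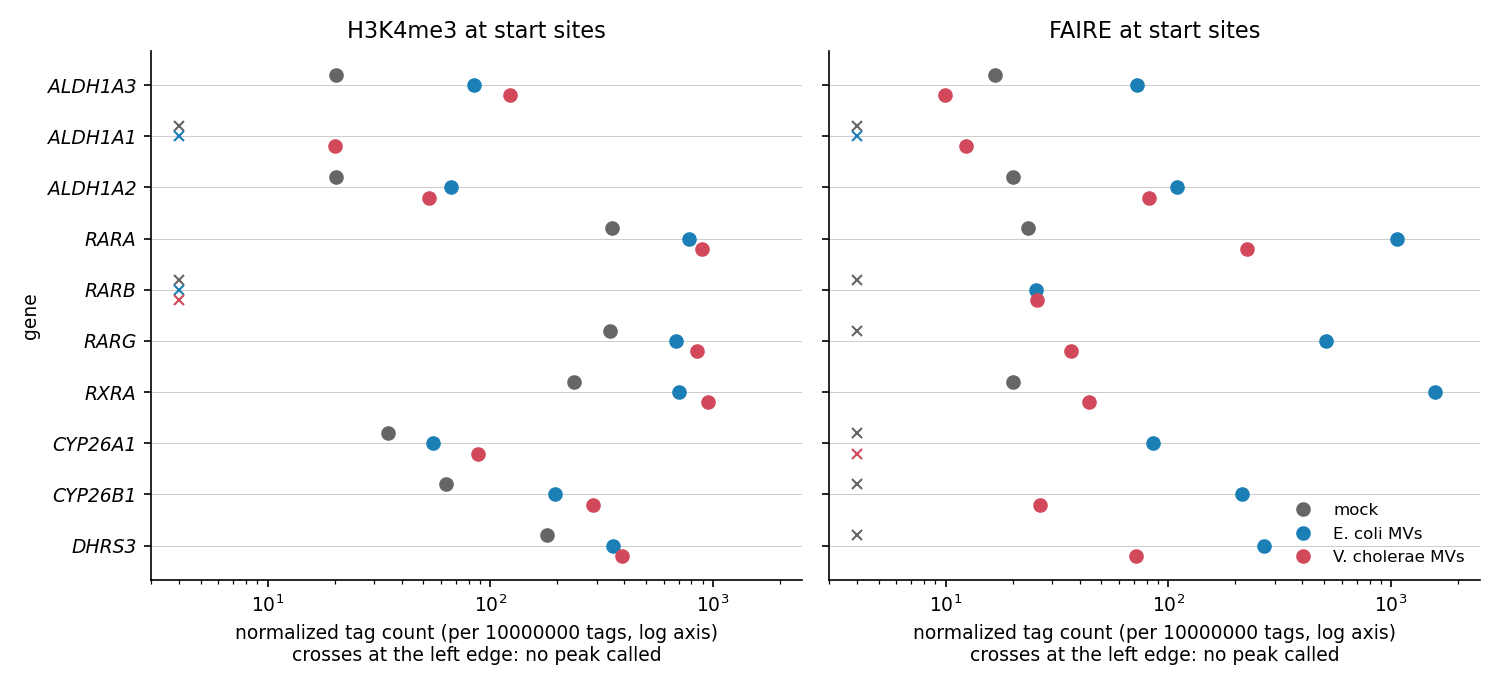
Normalized tag count (tags per 10000000, log axis) of each gene in the 3 libraries of H3K4me3 (left) and FAIRE (right), as points coloured by treatment, with crosses at the left edge where no peak was called. In H3K4me3 the mock point is the lowest for the 8 genes with a mock peak, and in FAIRE the E. coli MVs point is the highest for 8 of the 9 genes that have one there, with RXRA at 1566, RARB being nearly equal with both MVs at 25.4 and 25.7.

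Among the enzymes that make retinoic acid, ALDH1A3, the isoform tied to aldehyde dehydrogenase activity in several carcinomas, had an H3K4me3 normalized tag count of 20.2 in mock-treated cells, 84.5 with MVs from E. coli and 122.2 with those from V. cholerae. The counts came from 7, 89 and 159 tags. Both MV libraries were above mock, and V. cholerae MVs were the higher of the pair. The log2 ratio to mock was 2.06 (0.96 to 3.42) for MVs from E. coli and 2.60 (1.52 to 3.93) for those from V. cholerae, and that between the MVs was 0.53 (0.15 to 0.92). The difference between the MVs came within counting error per 1000 bp of called span, at 0.37 (-0.01 to 0.76). It did so too relative to the median of the broad class of genes with the highest GC content, at 0.17 (-0.21 to 0.56). These ratios to mock were the highest of the 8 genes that had one and lay at the 98.9th and 99.1st percentile of all genes with a peak in both libraries. The width of the intervals comes from the 7 mock tags. In bulk cultures, more cells with a marked promoter and more mark per cell cannot be told apart.

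The ALDH1A3 peak was also wider with both MVs. In mock-treated cells it was called over 500 bp, at chr15:101419151-101419651, and ended before the bases printed above. With E. coli MVs it spanned 1352 bp (chr15:101419318-101420670) and with V. cholerae MVs 1514 bp (chr15:101419137-101420651), in both cases across the 5 start sites at the first exon, which holds coding sequence and UTR. Per 1000 bp of called span the normalized tag count was 40.4, 62.5 and 80.7, a log2 ratio to mock of 0.63 (-0.47 to 1.99) and 1.00 (-0.08 to 2.34). The higher density with both MVs was within the counting error of the mock peak. No other H3K4me3 peak was called in the 38.9 kb of the gene. The called span had 74.4% GC, and ratios over all genes moved with GC content, as described after the single genes.

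FAIRE at ALDH1A3 was split over places. With E. coli MVs a peak of 57.0 covered the first exon (chr15:101419872-101421263), where the other 2 lists had none. A peak near the start site of the short transcript ALDH1A3-205 was called in each library, at 8.29, 15.2 and 9.94 in mock, E. coli MVs and V. cholerae MVs, and it rested on 12 tags each time. Mock-treated cells had a further peak of 8.29 upstream of the gene. The summed FAIRE values of 16.6, 72.2 and 9.94 therefore do not describe the same site in each library.

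ALDH1A2, the main retinaldehyde dehydrogenase of the embryo, had H3K4me3 values of 20.2, 66.5 and 53.0 in the 3 libraries. Its log2 ratio to mock was 1.72 (0.60 to 3.08) for MVs from E. coli and 1.39 (0.27 to 2.76) for those from V. cholerae. With both MVs the value sums more peaks than in mock-treated cells. For MVs from E. coli the ratio was 1.17 (0.02 to 2.56) over overlapping peaks alone, and no E. coli peak lay within 500 bp of a start site. For those from V. cholerae it was 0.53 (-0.65 to 1.94) over overlapping peaks alone, 0.24 (-0.97 to 1.67) within 500 bp of a start site and 0.85 (-0.27 to 2.22) scaled to tags in all peaks, each within counting error. None of these peaks covered a start site. They lay in an intron, 417 bp and 466 bp from alternative start sites at the nearest, and the mock value was again 7 tags. The canonical start site, with a CG ratio of 0.93, had no H3K4me3 peak within 1000 bp in any library, and a FAIRE peak of 33.0 with E. coli MVs only.

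ALDH1A1, an isoform of the normal colon and liver, had 1 H3K4me3 peak, of 20.0 with V. cholerae MVs (26 tags, 4.37-fold over input), at chr9:75567163-75567921 over the first exon. At the depth of the mock library the same level would give 6.93 tags, with 6 tags as the threshold in the header of that list, so a difference from mock-treated cells was not detectable at this depth. Inside the gene, away from its start sites, further H3K4me3 peaks summed to 57.8, 81.6 and 33.0. FAIRE gave 1 peak, of 12.4 with V. cholerae MVs, at another start site.

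**Figure D2:**
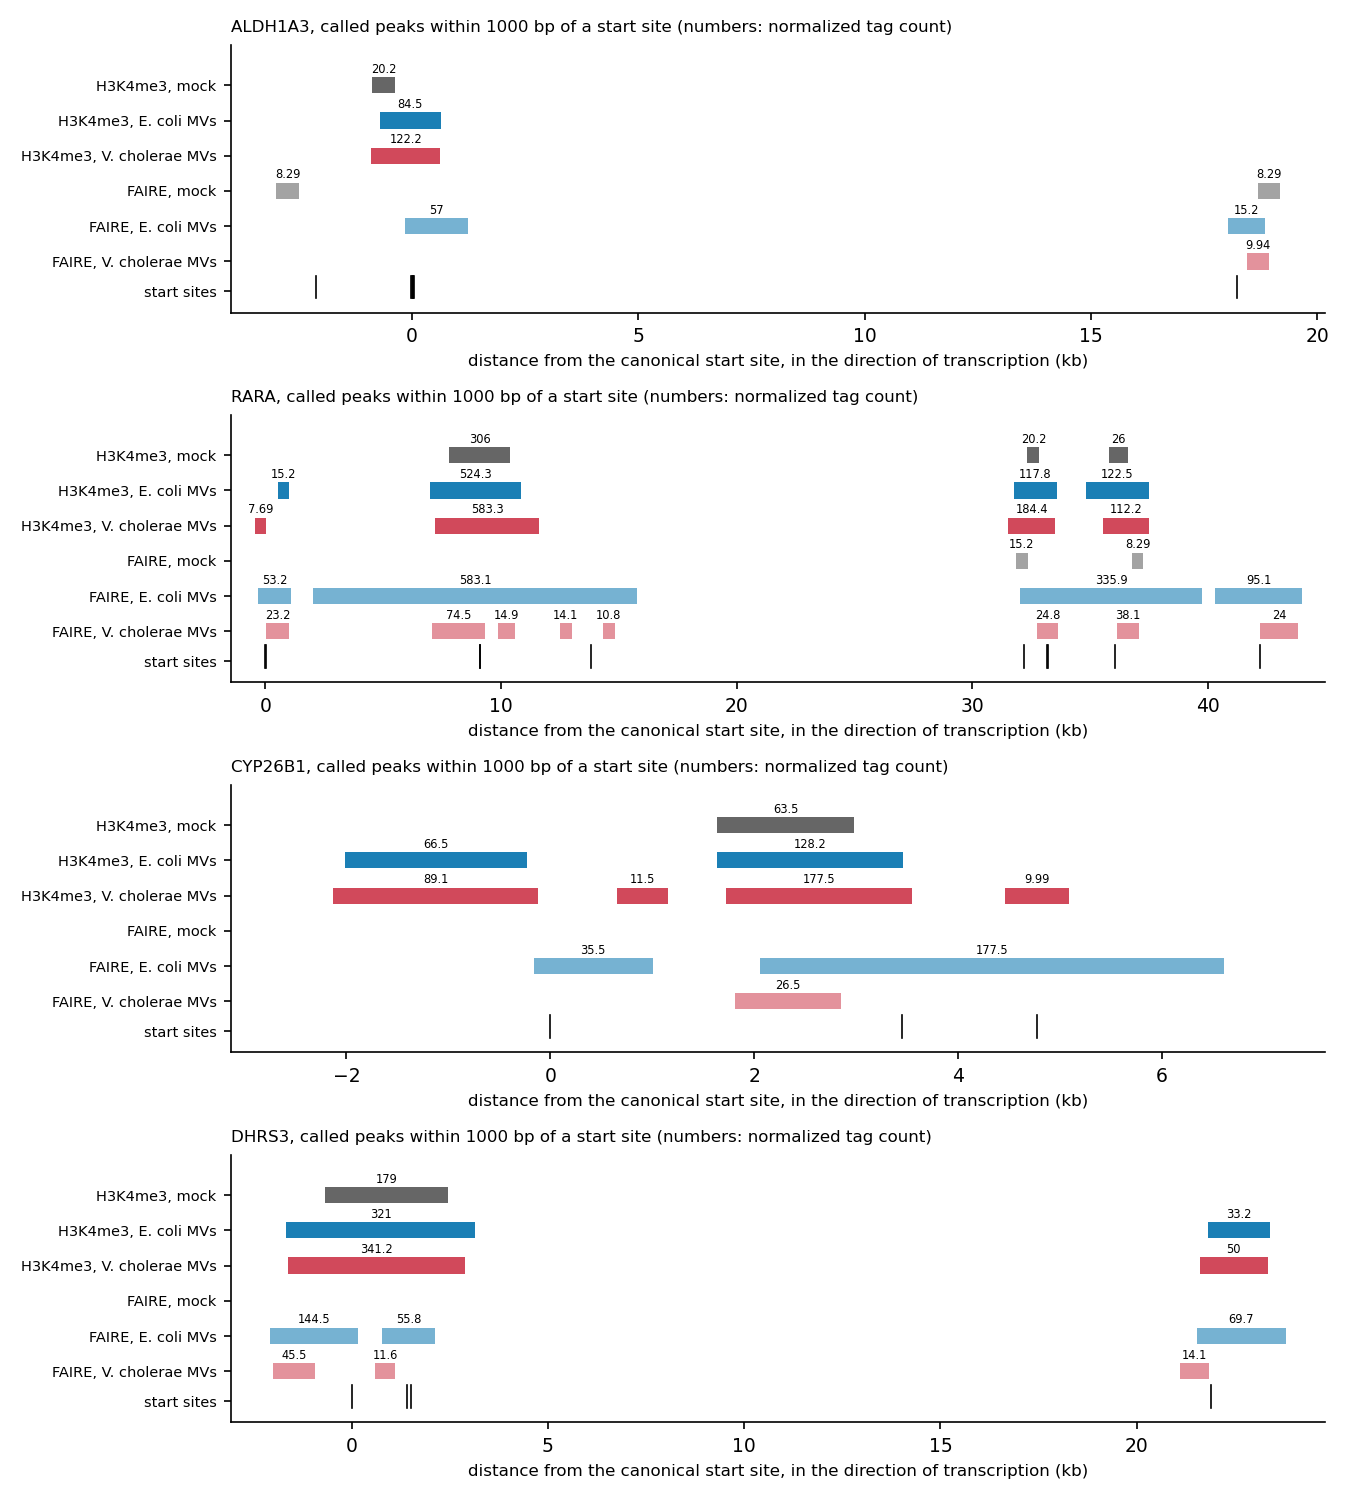
Called peaks near the start sites of ALDH1A3, RARA, CYP26B1 and DHRS3, drawn as bars at their distance (kb) from the canonical start site in the direction of transcription, with the normalized tag count above each bar and 1 row per library, and annotated start sites as black lines below. ALDH1A3 H3K4me3 spans the start sites with both MVs and lies upstream of them in mock-treated cells, and the FAIRE peaks of E. coli MVs at RARA are the widest, at up to 13759 bp.

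Of the receptors, RARA, RARG and RXRA had the highest H3K4me3 density of the 10 genes in mock-treated cells, at 90.8, 78.2 and 80.8 normalized tags per 1000 bp. Neighbours in that order overlapped in their counting intervals for all 7 steps from RARA down to ALDH1A2. With V. cholerae MVs the order ran RARA (100.4), RARG (91.6), ALDH1A3 (80.7), RXRA (77.1), DHRS3 (62.7), CYP26B1 (57.9), CYP26A1 (34.7), ALDH1A1 (26.4) and ALDH1A2 (22.2), with steps beyond counting error below RXRA and below CYP26B1. ALDH1A3 was level with ALDH1A2 at the lowest density in mock-treated cells, and stood at the fourth place with E. coli MVs and the third with those from V. cholerae.

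RARA, the receptor found in most tissues, had H3K4me3 values of 352.2 in mock-treated cells, 779.8 with MVs from E. coli and 887.6 with those from V. cholerae. Relative to mock, the log2 ratio was 1.15 (0.87 to 1.43) and 1.33 (1.06 to 1.61). The gene has several start sites, and the ratio of summed tags to mock was not the same at each. At its largest peak (chr17:38472431-38477050) the 3 values were 306.0, 524.3 and 583.3, a log2 ratio of 0.78 (0.47 to 1.09) and 0.93 (0.64 to 1.24). At the downstream start sites (chr17:38496957-38499044), where the response element letters lie, they were 20.2, 117.8 and 184.4, a log2 ratio of 2.54 (1.46 to 3.89) and 3.19 (2.13 to 4.52). The intervals of the 2 places did not overlap in either comparison on summed tags. Per 1000 bp of called span the log2 ratios were 0.20 and 0.16 at the largest peak and 0.66 and 1.19 at the downstream place. Whether the places differ in density beyond counting error was not tested. The mock peak at the downstream place held 7 tags over 500 bp. RARA-AS1, an antisense transcript, starts within 1000 bp of it, and tags there cannot be assigned to either strand.

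FAIRE at RARA was 23.5 in mock-treated cells, 1067 with MVs from E. coli and 224.4 with those from V. cholerae. On the log2 scale it was above mock by 5.51 (5.01 to 6.05) for MVs from E. coli and 3.26 (2.74 to 3.82) for those from V. cholerae. Per 1000 bp of called span the FAIRE values were 23.5, 40.2 and 26.5, so the difference lay mainly in the length called, 1000 bp against 26580 bp and 8467 bp. A further mock peak of 22.1 (chr17:38472561-38473362) lay inside the widest E. coli peak but 1171 bp from a start site, and was not counted. Within 2000 bp of a start site the log2 ratios to mock were 4.55 (4.19 to 4.93) and 2.30 (1.91 to 2.71). At the response element letters a FAIRE peak was called with E. coli MVs alone.

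RARG, the receptor of skin and other epithelia, had H3K4me3 values of 343.6, 684.8 and 844.6. Relative to mock, the log2 ratio was 1.00 (0.71 to 1.29) and 1.3 (1.02 to 1.58), and both of its promoter regions were higher with both MVs. In the region inside the gene (chr12:53610220-53616218) the values were 251.2, 488.2 and 585.6, and in the region around its first exons (chr12:53624715-53628018) 92.4, 196.6 and 259.0. The mock library had no FAIRE peak within 1000 bp of a RARG start site. For MVs from E. coli the FAIRE value was 286.5 in the region inside the gene, 161.0 around the first exons and 62.1 in a further region (chr12:53606790-53608163). V. cholerae MVs had a counted value in the region inside the gene alone, at 36.4. Another V. cholerae peak in that region, of 33.9 (chr12:53610611-53611929), lay 1475 bp from a start site and was not counted.

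RXRA, the partner of the RARs and of several other nuclear receptors, had H3K4me3 values of 236.7, 703.8 and 946.1. This gave a log2 ratio to mock of 1.57 (1.24 to 1.92) for MVs from E. coli and 2.0 (1.68 to 2.34) for those from V. cholerae. At the canonical start site (chr9:137216805-137222262) the values were 236.7, 601.2 and 728.6, with 80.8, 115.7 and 133.5 per 1000 bp. A second region (chr9:137269193-137275501), at the start site of RXRA-205 and near that of the microRNA gene MIR4669, had no mock peak, 102.6 with E. coli MVs and 208.3 with those from V. cholerae. The latter level would give 72.2 tags at the depth of the mock library. This region was thinly marked, at 29.2 and 33.0 per 1000 bp, and with it the density of the gene as a whole came to 80.8, 80.8 and 77.1.

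RARB, which is itself a classical target of retinoic acid, had no H3K4me3 peak within 1000 bp of a start site in any library. The nearest peak began 1124 bp to 1278 bp downstream, at chr3:25471331-25473335 in mock-treated cells, and its values ran in the opposite order to those above, at 92.4 in mock-treated cells, 71.2 with MVs from E. coli and 40.7 with those from V. cholerae. The log2 ratio to mock was -0.37 (-0.99 to 0.27) for MVs from E. coli and -1.18 (-1.84 to -0.50) for those from V. cholerae. The called lengths were alike, so the density per 1000 bp had the same order, at 46.1, 37.4 and 21.2. FAIRE covered the start sites and the response element letters with both MVs, at 25.4 and 25.7, and no peak was called in mock-treated cells, where that level would give 37.2 tags.

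Among the enzymes that limit retinoic acid, CYP26A1, a hydroxylase induced by retinoic acid in many cells, had H3K4me3 values of 34.6, 55.0 and 88.4. The log2 ratio to mock was 0.67 (-0.24 to 1.70) with E. coli MVs, within counting error, and 1.35 (0.49 to 2.35) with V. cholerae MVs. The latter also came within counting error scaled to tags in all peaks, at 0.81 (-0.05 to 1.80). With the median of all genes set to 0 it was 0.72 (-0.14 to 1.71). The mock peak of 12 tags stood 976 bp from the nearest start site, just inside the window. With E. coli MVs the larger peak, of 38.9, also stood away, at 793 bp. Only a further peak of 16.1 (17 tags) reached the start sites and the response element letters. That level is below the 20.0 of ALDH1A1, so a difference from mock there was not detectable at the depth of that library. With V. cholerae MVs the 1 peak reached both. FAIRE was called with E. coli MVs alone, at 84.9.

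CYP26B1, the other hydroxylase, had H3K4me3 values of 63.5, 194.7 and 288.1. This gave a log2 ratio to mock of 1.62 (0.98 to 2.32) and 2.18 (1.56 to 2.87). Its peak inside the gene (chr2:72371437-72373354) measured 63.5, 128.2 and 177.5, and the region just upstream of the first exon (chr2:72375108-72377122) had no mock peak, 66.5 with E. coli MVs and 89.1 with those from V. cholerae. FAIRE was 213.0 with E. coli MVs and 26.5 with those from V. cholerae, with no mock peak.

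DHRS3, a retinal reductase and a classical target of retinoic acid, had H3K4me3 values of 179.0, 354.2 and 391.2. The log2 ratio to mock was 0.99 (0.59 to 1.40) and 1.13 (0.75 to 1.53), the lowest of the 8 ratios with V. cholerae MVs. Most of it lay at the canonical start site (chr1:12675078-12679877), at 179.0, 321.0 and 341.2. A start site further downstream (chr1:12654832-12656615), which holds the response element letters, had no mock peak, 33.2 with E. coli MVs and 50.0 with those from V. cholerae. FAIRE was 270.0 with E. coli MVs and 71.2 with those from V. cholerae. At the downstream start site it was 69.7 and 14.1, and the peak covered the response element letters with E. coli MVs alone.

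Set against all genes, the H3K4me3 of these genes was at least 2-fold higher than mock in 5 of 8 with E. coli MVs, where 14.8% of all genes were, and in 8 of 8 with V. cholerae MVs, where 27.7% were. The latter count rests on the scaling to all tags of a library. It was 3 of 8 beside 8.94% of all genes when scaled to tags in all peaks, 3 of 8 beside 7.41% with the median of all genes set to 0, and 6 of 8 over overlapping peaks alone. The median log2 ratio of the 8 was 1.36 and 1.37, beside 0.52 and 0.63 for all genes. Between the 2 kinds of MVs, none of the 8 was at least 2-fold higher with those from V. cholerae (1.53% of all genes were), and the median there was 0.36 beside 0.11. ALDH1A2 was the gene of the 8 with the lower value in the V. cholerae library, at -0.33 (-0.83 to 0.17). The comparisons with mock share the 1 mock library.

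**Figure D3:**
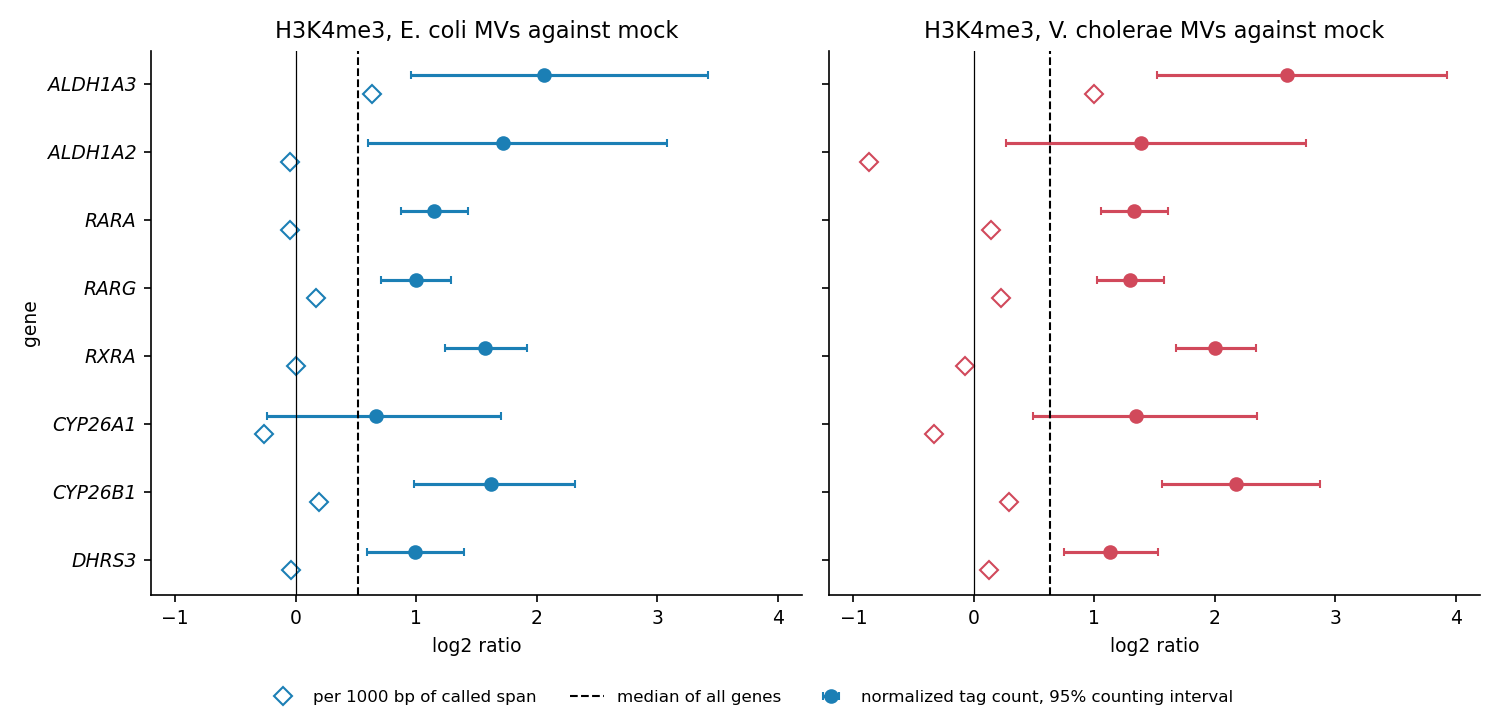
Log2 ratio of H3K4me3 to mock for the 8 genes with a peak in each library, with E. coli MVs (left) and V. cholerae MVs (right), where filled points are the normalized tag count with its 95% counting interval, open diamonds are the same per 1000 bp of called span, and the dashed line is the median of all genes. Filled points lie right of the dashed line for all 8 genes in both panels, and the diamonds lie between -0.33 and 0.29 except for ALDH1A3, at 0.63 and 1.00, and ALDH1A2, at -0.87 in the right panel.

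Summed over all peaks of a gene, the difference was one of called width more than of density. Called width can depend on depth, which was lowest in mock, and its part was not tested. The H3K4me3 called near start sites of the 10 genes added up to 17.5 kb in mock-treated cells, 39.9 kb with MVs from E. coli and 48.8 kb with those from V. cholerae, in 13, 17 and 20 peaks. The median log2 ratio of the called span was 1.31 and 1.64 for the 8 genes, beside 0.25 and 0.25 for all genes. Per 1000 bp the median was -0.02 and 0.14, beside 0.24 and 0.33 for all genes. These sums include thin regions without a mock peak. At single regions called in each library the log2 ratio per 1000 bp was 0.52 and 0.72 at the canonical RXRA start site. It was 0.57 and 1.03 at the CYP26B1 peak inside the gene, but -0.26 and -0.33 at CYP26A1, and 0.28 and -0.64 at ALDH1A2. In the sums per gene, ALDH1A3 was the gene whose density differed most from mock, at 0.63 (-0.47 to 1.99) and 1.00 (-0.08 to 2.34), within counting error. The single RARA region at the downstream start sites had 0.66 and 1.19. Of 21 joined regions, 11 had a peak in each library (82.4% of the regions of all protein-coding genes did), 4 in both MV libraries and not in mock (7.62%), 1 in the E. coli library only (3.04%), 5 in the V. cholerae library only (4.69%) and 0 in mock only (1.12%). Those in 1 MV library only would give 2.66 to 6.93 tags at the depth of the mock library, so that their absence from the mock list is at the limit of that depth.

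**Figure D4:**
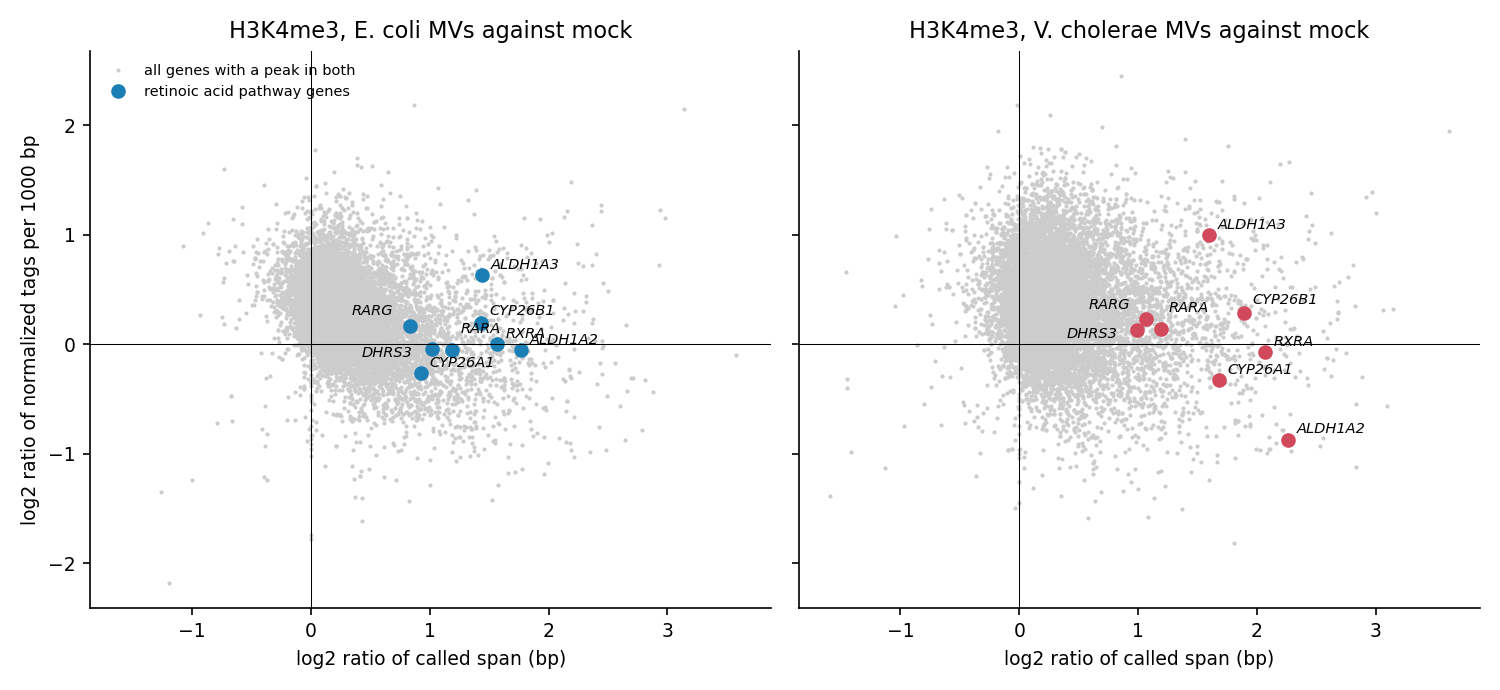
Log2 ratio to mock of the called H3K4me3 span (x axis) against that of normalized tags per 1000 bp (y axis) for all genes with a peak in both libraries (grey) and for the 8 genes (coloured, labelled), with E. coli MVs (left) and V. cholerae MVs (right). The 8 genes lie to the right of most grey points, around a median span ratio of 1.31 and 1.64, and ALDH1A3 is the highest of them.

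GC content moved with the ratios over all genes, and these genes are GC-rich. The called H3K4me3 span of ALDH1A3 had 74.4% GC, at the 99.4th percentile of genes with a peak, followed by RXRA (65.7%), CYP26B1 (61.7%), CYP26A1 (61.1%), RARA (59.5%), RARG (59.3%) and DHRS3 (59.1%), while ALDH1A2 (48.5%) lay below the median of 54.0%. Genes with a peak in both libraries were divided into 4 equal classes by GC content. The class with the highest GC content held 7 of the 8, and its median log2 ratio to mock was 0.93 with E. coli MVs and 1.28 with those from V. cholerae, beside 0.23 and 0.14 in the lowest class. That class ran from 58.74% to 78.19% GC with E. coli MVs, so ALDH1A3 was set against genes of mostly lower GC content. The class median does not remove that difference. In that top class 42.9% and 75.1% of genes were at least 2-fold above mock, compared with 1.39% and 1.26% in the lowest. Relative to the median of their own GC class, the 8 genes had a median of 0.43 and 0.39, and ALDH1A3 had 1.13 (0.03 to 2.49) and 1.32 (0.24 to 2.65). On that scale 4 of the 8 stayed above mock beyond counting error with either MVs, namely ALDH1A3, ALDH1A2, RXRA and CYP26B1. The ALDH1A2 value sums more peaks with both MVs than in mock-treated cells. Over overlapping peaks alone its ratio, before the GC scaling, was 1.17 (0.02 to 2.56) and 0.53 (-0.65 to 1.94). The other 4 came within counting error, with RARA at 0.22 and 0.05, RARG at 0.07 and 0.02, CYP26A1 at -0.26 and 0.07, and DHRS3 at 0.06 and -0.15 for MVs from E. coli and V. cholerae. At least 2-fold higher on that scale were 2 of 8 with E. coli MVs, beside 2.0% of all genes, and 2 of 8 with V. cholerae MVs, beside 2.53%. The part of GC content and of the lower depth of the mock library in these results was not tested.

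In FAIRE all 4 genes with a peak in both libraries were at least 2-fold higher with E. coli MVs than in mock, as were 94.4% of all genes, with a median log2 ratio of 3.97 beside 3.07. It was 2 of 4 beside 37.5% when scaled to tags in all peaks and 2 of 4 beside 18.1% with the median of all genes set to 0. Over overlapping peaks alone, ALDH1A3 at 0.88 (-0.41 to 2.16) and ALDH1A2 at 0.37 (-0.83 to 1.52) came within counting error. RARA and RXRA stayed above mock there, at 5.29 and 5.56. With V. cholerae MVs, 3 of 4 genes were at least 2-fold higher than mock, beside 63.7%, with a median of 1.58 beside 1.38. Of these 3, RXRA came within counting error over overlapping peaks, at 0.98 (-0.04 to 2.05). Between the MVs, 6 of 8 genes were at least 2-fold lower with V. cholerae MVs, beside 80.2% of all genes, and the lowest was RXRA at -5.16 (-5.58 to -4.76), from 1566 to 43.9. Per 1000 bp of called span RXRA was at -0.76 (-1.18 to -0.36), the called length being 38233 bp and 1813 bp. Further FAIRE peaks inside RXRA, summing to 1946 and 440.5, lay outside the window and were not counted. Of the 8 genes, RARB at 0.02 (-0.84 to 0.91) and ALDH1A2 at -0.41 (-0.84 to 0.02) were the 2 within counting error. Scaled to tags in all peaks, both were higher with V. cholerae MVs, RARB at 1.44 (0.58 to 2.33) and ALDH1A2 at 1.01 (0.58 to 1.45). The FAIRE peaks of the 10 genes covered 4.2 kb, 97.2 kb and 19.5 kb. The median log2 ratio of the called span to mock was 3.11 for the 4 genes beside 1.60 for all genes with E. coli MVs, and 0.99 beside 0.72 with those from V. cholerae. The 4 lay far apart, since with E. coli MVs the ratio of RXRA stood at the 99.9th percentile of all genes and that of RARA at the 98.6th, and those of ALDH1A2 and ALDH1A3 at the 29.3rd and 20.9th. Per 1000 bp of called span the FAIRE levels ran from 16.6 to 23.5 in mock-treated cells (4 genes). For MVs from E. coli (9 genes) the range was 20.4 to 46.2, and for those from V. cholerae (9 genes) it was 19.9 to 34.9. All neighbours in each order overlapped in their counting intervals.

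Both marks shared places more often with MVs than in mock-treated cells, at these genes and over all H3K4me3 peaks. Of the H3K4me3 peaks of these genes, 2 of 13 shared at least 1 bp with a FAIRE peak of the same treatment in mock-treated cells, 17 of 17 with E. coli MVs and 11 of 20 with those from V. cholerae. Over all H3K4me3 peaks, at any distance from a start site, the shares were 21.9%, 59.7% and 52.6%. The FAIRE peaks of these genes covered 97.2 kb with E. coli MVs, beside 4.2 kb in mock-treated cells and 19.5 kb with V. cholerae MVs. The part of that width in the sharing was not tested. With V. cholerae MVs, ALDH1A1, ALDH1A3 and CYP26A1 had H3K4me3 and no FAIRE at the same place.

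The genes whose H3K4me3 over the 3 libraries was closest to that of ALDH1A3, by Euclidean distance of log2 normalized tag counts among 12065 genes, were ART5 (0.169), PNPLA3 (0.189), PRX (0.203), PRSS22 (0.251) and KANK3 (0.265). Their mock values were 20.2 to 23.1, and those with V. cholerae MVs 104.5 to 146.8.

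The rest of the pathway was described by a wider list of 46 genes for transport, storage, oxidation and transcriptional partners of retinoids. An H3K4me3 peak was called for 25, 31 and 32 of them in the 3 libraries, beside 60.4%, 64.2% and 65.2% of all protein-coding genes. At least 2-fold above mock were 4 of 25 with E. coli MVs, beside 14.8% of all genes, and 5 of 24 with those from V. cholerae, beside 27.7%. At least 2-fold below were 0 and 2, beside 0.141% and 0.273%. Those 2 were ISX and RDH5, whose called peaks differ between libraries as described below. The median log2 ratio of the wider list was 0.43 and 0.70, beside 0.52 and 0.63 for all genes.

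Among genes of the wider list with a peak in all 3 libraries, the lowest with E. coli MVs were ISX, a homeobox repressor of vitamin A uptake in the gut, at a log2 ratio to mock of -0.72 (-1.54 to 0.15), and RDH16, a retinol dehydrogenase, at -0.19 (-1.62 to 1.45). ISX was also low with V. cholerae MVs, at -1.77 (-2.71 to -0.82), its values being 57.7, 35.1 and 16.9. A further V. cholerae peak of 8.45 lay 1043 bp from its start site, just outside the window, and with it, a sum chosen after its values were seen, the value was 25.3 and the log2 ratio -1.19 (-2.03 to -0.31).

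RDH5, the retinol dehydrogenase of the eye, had values of 522.5, 554.7 and 66.1, a log2 ratio of -2.98 (-3.37 to -2.60) with V. cholerae MVs. Here the peak calling differed between libraries. Mock and E. coli MVs had 1 peak each over BLOC1S1 and RDH5, whereas V. cholerae MVs had a peak of 66.1 at RDH5 and another of 498.8 that ended 1462 bp from its nearest start site. Together these come to 564.9. Of the genes with a peak in some libraries only, RARRES2 (none, 30.4 and 53.8), RBP4, the plasma carrier of retinol (none, 22.8 and 36.1), and AKR1B10, a retinal reductase (none, 26.6 and 8.45), lacked a mock peak, and ADH4, an alcohol dehydrogenase (34.6, 21.8 and none), lacked one with V. cholerae MVs.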

How the data were processed

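HCT8 cells given MVs or mock-treated for 5 h were profiled by H3K4me3 ChIP sequencing and FAIRE sequencing. Peak lists were taken for 6 libraries (1 for each treatment in either assay), and 2 input libraries have no list among the files used here. The authors aligned reads to hg19 and called peaks in each library with HOMER in histone mode. HOMER 4.7.2, Bowtie 1.1.2 and SAMtools 1.3.1 are named in the submitters' processing notes, but the study's methods give other programs for alignment and, in part, peak calling. Per the file headers, peaks are at least 4-fold over input at a Poisson p of 1e-04. Each deposited peak has a normalized tag count, which is the signal scaled by the authors to 10000000 tags. The deposited tag count and the authors' fold, a ratio to input, were used to describe peaks, and their p-value over input was not used.

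From these values whole tags were recovered (largest distance from a whole number 0.0721, identical to the deposited tags in the 4 lists that give them unscaled). A gene's value is the sum over peaks within 1000 bp of any start site in GENCODE 44 on GRCh37. Ratios were formed only where both libraries had a peak, with exact conditional (Clopper-Pearson) 95% intervals and, for levels, exact Poisson intervals. PCR copies of tags are not independent molecules, so intervals understate the error. A peak near several genes counts for each, and noncoding genes start within 1000 bp of regions at ALDH1A2, RARA, RXRA, CYP26A1, CYP26B1 and DHRS3, whose tags cannot be split between them. Groups came from the labels. No gene is called at 0, since the lists hold only called peaks. Of the marker lists, PECAM1 was not found under that symbol.

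The genes and lists were chosen with earlier results of these data known. Named genes are the 10, the 5 most like ALDH1A3, and of the wider list the 2 highest and 2 lowest against mock per MVs among genes with a peak in all 3 H3K4me3 libraries and up to 4 with the most tags among those with a peak in some. The highest of the wider list are not reported here. The alternatives changed window, scaling, threshold, floor, overlap, transcripts and value. The computation of the intervals was checked on simulated counts. These were drawn independently, as the intervals assume, with no PCR copies, spread between cultures or peak calling, so the check does not cover those. Python 3.11.15, SciPy 1.17.1 and SAMtools 1.23.1 were used, and sequences came from the GRCh37 reference.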

Additional observations from a re-analysis of the deposited data

How the results depend on the processing

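No paired analysis was possible because only 1 library was made per treatment and assay, and for the same reason no library could be left out. Of 91 alternative values for medians and counts, 78 stayed within the range of the single genes' values (medians) or within 1.5 times (counts). For H3K4me3 the median of the genes against mock became -0.02 with E. coli MVs and 0.14 with those from V. cholerae per 1000 bp of called span, and 0.43 and 0.39 relative to the GC class, a scaling chosen after seeing the data. With V. cholerae MVs it was 0.83 scaled to tags in all peaks and 0.74 with the median of all genes set to 0. The FAIRE median with E. coli MVs was 1.58, 0.90 and, per 1000 bp, 0.97 under the same settings. Scaled to tags in all peaks and with the median of all genes at 0, FAIRE was at least 2-fold above mock with V. cholerae MVs in 2 and 1 of 4 genes, and at least 2-fold lower than with E. coli MVs in 4 and 4 of 8. Per 1000 bp, H3K4me3 was at least 2-fold above mock in 0 of 8 genes with either MVs, ALDH1A3 lying just under that limit with V. cholerae MVs. FAIRE peaks in mock were found for 8 genes within 2000 bp, and at 8-fold or more over input for 0 (mock), 2 (E. coli MVs) and 2 (V. cholerae MVs), which left no FAIRE ratio to mock. Single genes changed sign in 22 of 353 values, 15 of them from a value beyond counting error. Per 1000 bp, H3K4me3 with E. coli MVs was -0.05 for ALDH1A2, -0.05 for RARA, -0.0001 for RXRA and -0.04 for DHRS3, with V. cholerae MVs -0.87 for ALDH1A2, -0.07 for RXRA and -0.33 for CYP26A1, and between the MVs -0.07 for RXRA and -0.07 for CYP26A1. Relative to the GC class, DHRS3 with V. cholerae MVs was -0.15 and RARA between the MVs -0.17. In FAIRE with E. coli MVs, ALDH1A3 was -0.27 scaled to tags in peaks and -0.95 with the median of all genes at 0, where ALDH1A2 was -0.63, and RXRA with V. cholerae MVs was -0.25. The other 7 began within counting error: CYP26A1 H3K4me3 with E. coli MVs went to -0.26 both per 1000 bp and relative to the GC class, DHRS3 between the MVs to -0.05 relative to the GC class, ALDH1A3 FAIRE with V. cholerae MVs to 0.26 over overlapping peaks and per 1000 bp, and ALDH1A2 FAIRE between the MVs to 1.01 scaled to tags in peaks and 1.18 with the median of all genes at 0, where RARB was 1.61. The cause was not tested. The ALDH1A3 H3K4me3 ratio to mock was above 0 under all 10 alternatives, between 0.63 and 2.06 with E. coli MVs and between 1.00 and 2.60 with V. cholerae MVs. Those of window, threshold, floor, overlap and transcripts could not move it, since the gene has 1 overlapping peak in each library, and they returned 2.06 and 2.60. Per 1000 bp the intervals held 0, at 0.63 (-0.47 to 1.99) and 1.00 (-0.08 to 2.34). The ALDH1A3 mock value rests on 7 tags.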
